A study of Mus musculus with 12 samples.

Results

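The tachykinin signalling genes followed here are Tac1, which encodes the peptide precursor, Tacr1, Tacr2 and Tacr3, which encode the 3 neurokinin receptors, and Mme, which encodes the peptidase neprilysin. They were chosen by name, and for each the assembled locus that holds an annotated Ensembl transcript was taken, which gave 5 of 24394 gene symbols. Of these 5, 4 reached 1 FPKM (fragments scaled to transcript length and to the mapped fragments of the library) in at least 3 libraries and were tested. Mme did not, and its values are given without a test.

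Tachykinins are short neuropeptides with closely related C-terminal ends that act on receptors coupled mainly to Gq and phospholipase C. Substance P prefers the neurokinin-1 receptor (Tacr1), neurokinin A the neurokinin-2 receptor (Tacr2) and neurokinin B the neurokinin-3 receptor (Tacr3). In the gut wall they are best known as excitatory transmitters of enteric motor neurons and as peptides of sensory nerves. Neprilysin sits on the cell surface and degrades them.

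RNA bound to ribosomes was sequenced in 12 libraries from the distal colon myenteric plexus of C57BL/6 mice. All 12 mice carried Sox10::CreERT2+/- and the Rpl22tm1.1Psam/J allele, so that tamoxifen (400 mg/kg in chow for 2 weeks, then 1 week without) put a tag on ribosomes of cells with Sox10 activity, which in this tissue are enteric glia. The 4 groups of 3 mice were Saline_Vehicle (saline enema, 0.1% DMSO injected), DNBS_Vehicle (an enema of 5 mg DNBS in 50% ethanol, 0.1% DMSO), Saline_GR159897 (saline enema, 0.5 mg/kg GR159897 in 0.1% DMSO) and DNBS_GR159897 (the DNBS enema and GR159897). DNBS is a hapten that causes colitis, and GR159897 is an antagonist of the receptor encoded by Tacr2. Injections were daily over 3 days from 24 hours before the enema, and tissue was taken 48 hours after it. No ethanol is listed for the saline enema, and effects of DNBS and of ethanol cannot be told apart. Of the 3 mice per group 1 was female, except in DNBS_GR159897, where 2 were. The labels give no age.

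The labels call the samples glial cells, and the data hold RNA of other cells beside that of glia. In the 6 saline libraries the summed FPKM of 10 enteric glia markers, most of it from Apoe, lay between 3428 and 8273, that of 8 smooth muscle markers between 1734 and 4345, and that of 11 enteric neuron markers between 200 and 275. The library DNBS_GR159897 replicate 1 stands apart. Its glial sum was 25.9, its neuronal sum 10.6, and its sum over 8 epithelial markers 964, against at most 26.9 in the other 11. Many of the results that it moves in call, direction or size are given with and without it. The depth of the libraries is unknown, since the values are FPKM. A value listed at 0 is not read as absence: Foxd3, a transcription factor of enteric glia, was listed at 0 in 10 of 12 libraries.

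The peptide-coding stretches are shown because the values below are per locus and do not tell peptides apart. Each was read from GENCODE transcripts (GRCm38), 5′ to 3′ on the plus strand, with the last 5 codons of each peptide in capitals.
Substance P (Tac1, exon 3, chr6:7556732-7556764): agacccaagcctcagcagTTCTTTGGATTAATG
Neurokinin A (Tac1, exon 6, chr6:7559101-7559130): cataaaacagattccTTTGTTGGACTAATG
Neurokinin B (Tac2, exon 6, chr10:127729116-127729145): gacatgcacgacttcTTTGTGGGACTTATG
The capitals of the neurokinin A and B stretches matched at 13 of 15 bases, those of substance P and neurokinin A at 12, and those of substance P and neurokinin B at 10. The Tac1 locus in the table holds 5 annotated transcripts. Of these, 4 hold the substance P stretch and 2 hold the neurokinin A stretch, so a Tac1 value covers RNA with and without the part that encodes the preferred ligand of the antagonised receptor.

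Tacr3, the receptor gene for neurokinin B, had less RNA after DNBS in both drug arms. The Saline_Vehicle libraries held Tacr3 at 4.93, 6.24 and 6.58 FPKM, and the Saline_GR159897 libraries at 9.69, 4.33 and 5.01 FPKM. The DNBS_Vehicle libraries held it at 0.18, 2.08 and 1.25 FPKM, and the DNBS_GR159897 libraries at 0, 1.25 and 0.64 FPKM. All 6 DNBS libraries lay below all 6 saline libraries, an order found for 4.29% of the 12777 genes tested (4.74% without DNBS_GR159897 replicate 1), while 1.74% had the opposite order (3.66% without that library). Within the arms, 14.9% of genes had DNBS_Vehicle below Saline_Vehicle, and 17.6% had DNBS_GR159897 below Saline_GR159897. The mean was 5.92 ± 0.87 (SD, n = 3) FPKM in Saline_Vehicle and 1.17 ± 0.95 (SD, n = 3) FPKM in DNBS_Vehicle.

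Averaged over the drug arms, Tacr3 fell with DNBS by 1.98 on the log2 scale of FPKM + 1 (SE 0.31, limma, adjusted p = 0.00512), lower in 6 of 6 libraries than in every saline library. In this comparison 9.6% of all genes passed an adjusted p of 0.05, 6.83% of all genes as lower and 2.76% as higher, and the median change of all genes was −0.18. An exact permutation test within drug arms, two-sided, gave p = 0.005 for Tacr3, the smallest that the 400 rearrangements allow. Without DNBS_GR159897 replicate 1 the change was −1.82 (adjusted p = 0.00627). The call held in all 12 fits that left out 1 library, with changes from −2.13 to −1.78. In a bulk sample, fewer cells of a type and less RNA per cell cannot be told apart.

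Within the drug arms the evidence for Tacr3 was less firm. Between DNBS_Vehicle and Saline_Vehicle the change was −1.77 ± 0.44 (SE, limma, adjusted p = 0.131), which missed the threshold that 0.321% of all genes passed, 0.0861% as lower. Without DNBS_GR159897 replicate 1, which leaves this change as it is but enters the shared spread, the adjusted p was 0.0607. In that fit 115 of 12777 genes passed as higher and 61 as lower. Between DNBS_GR159897 and Saline_GR159897 the change of Tacr3 was −2.18 ± 0.44 (SE, limma, adjusted p = 0.0382), a threshold that 1.38% of all genes passed, 0.994% as lower. That call was lost in 13 of 22 other fits, among them the one without DNBS_GR159897 replicate 1 (−1.87, adjusted p = 0.0894). There 31 of 12777 genes passed as higher and 17 as lower. The Tacr3 call was also lost without each of the 6 saline libraries (adjusted p from 0.0548 to 0.162). The difference between the arms, tested as an interaction, was −0.41 ± 0.63 (SE, limma, adjusted p = 0.961), with a 95% interval from −1.77 to 0.95. With the antagonist, averaged over the enema arms, Tacr3 was at −0.18 (95% interval −0.86 to 0.50, adjusted p = 0.927). The interaction was −0.0932 and the antagonist average −0.0221 without DNBS_GR159897 replicate 1.

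**Figure D1:**
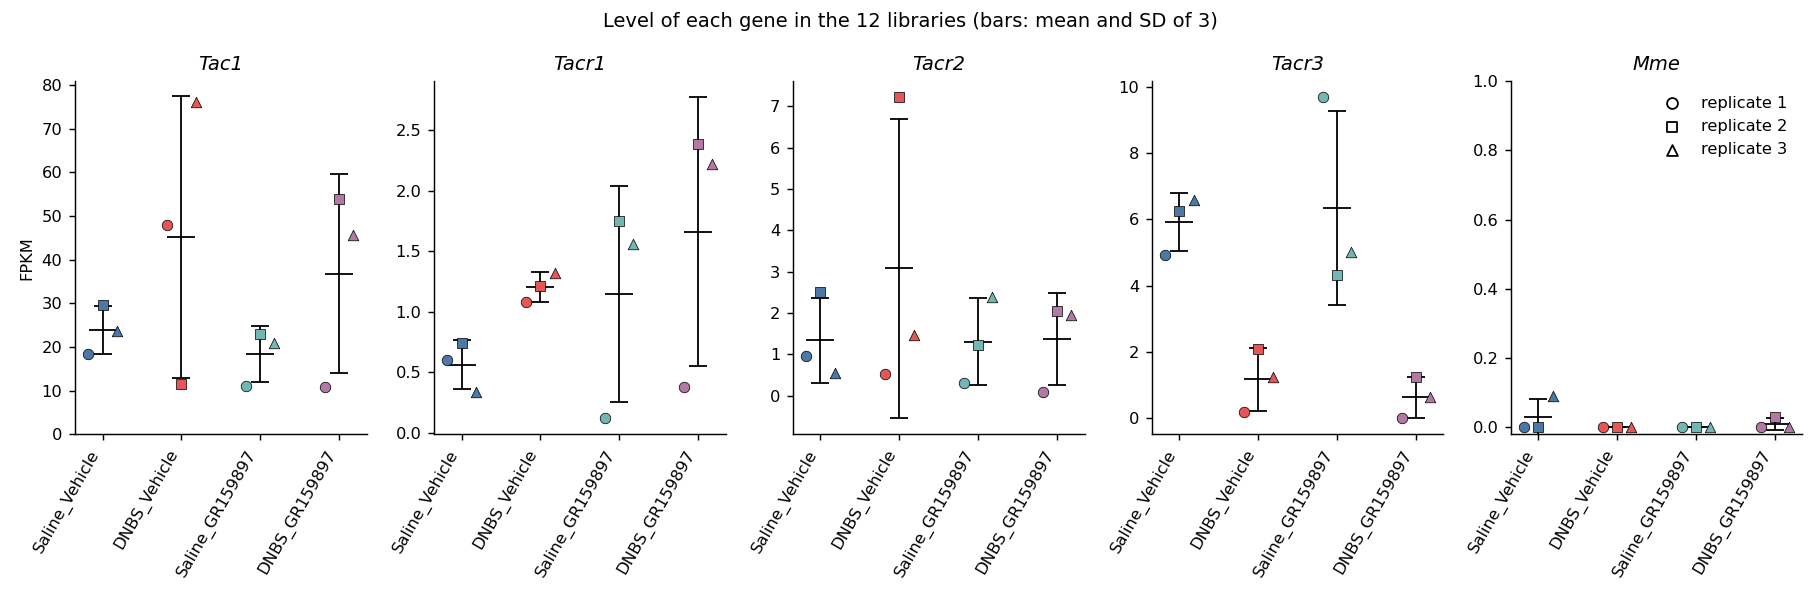
FPKM (linear axes, 1 panel per gene with its own scale) of Tac1, Tacr1, Tacr2, Tacr3 and Mme in the 12 libraries by group; symbols are single libraries, their shape gives the replicate number, and bars are the mean and SD of 3. The saline libraries of Tacr3 lie at 4.33 FPKM or above and its DNBS libraries at 2.08 FPKM or below, while the groups of the other genes overlap in at least 1 drug arm.

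Tacr1, the substance P receptor gene, was low in every group at its annotated locus. The vehicle arms held it at 0.60, 0.74 and 0.34 FPKM after saline and at 1.08, 1.21 and 1.32 FPKM after DNBS. The antagonist arms held it at 0.12, 1.75 and 1.56 FPKM after saline and at 0.38, 2.38 and 2.22 FPKM after DNBS. The 3 DNBS_Vehicle libraries lay above the 3 Saline_Vehicle libraries, as for 9.53% of all genes. The groups with antagonist overlapped, and 6.67% of genes had DNBS_GR159897 above Saline_GR159897. The change with DNBS averaged over the drug arms was 0.41 ± 0.30 (SE, limma, adjusted p = 0.394), with a 95% interval from −0.24 to 1.05. Without DNBS_GR159897 replicate 1 it was 0.62 (limma, adjusted p = 0.16). The exact permutation test within drug arms, two-sided and unadjusted over 8 tests, gave p = 0.215 with all libraries and p = 0.015 without that library.

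Tacr2 encodes the target of GR159897. With vehicle, Tacr2 had 0.96, 2.50 and 0.54 FPKM after saline and 0.53, 7.22 and 1.47 FPKM after DNBS. With GR159897 it had 0.30, 1.23 and 2.39 FPKM after saline and 0.08, 2.05 and 1.95 FPKM after DNBS. All 4 groups overlapped, and DNBS_Vehicle replicate 2 was the highest library by a wide margin. With DNBS, averaged over the drug arms, the change was 0.26 ± 0.44 (SE, limma, adjusted p = 0.744), and it was −0.09 without DNBS_Vehicle replicate 2. With the antagonist, averaged over the enema arms, it was −0.30 ± 0.44 (SE, limma, adjusted p = 0.916), with a 95% interval from −1.25 to 0.66. These changes were 0.50 and −0.0512 without DNBS_GR159897 replicate 1. Tacr2 is known from smooth muscle, and the sum of smooth muscle markers did not follow it in every library. It was 2311 FPKM in DNBS_Vehicle replicate 2, with the highest Tacr2, and 6729 FPKM, the highest sum, in DNBS_Vehicle replicate 3, where Tacr2 was at 1.47 FPKM. In DNBS_GR159897 replicate 1, with the lowest Tacr2, both were at their lowest. The part of smooth muscle RNA in the Tacr2 values was not tested.

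Since FPKM is per length, the receptor levels can be set side by side within a library. By their annotated loci, Tacr3 was the highest of the 3 receptor genes in 6 of 6 saline libraries. It was so in none of the 6 DNBS libraries, where Tacr1 was highest in 4 and Tacr2 in 2. The 37 other loci named for Tacr1 are left out of this order and of the shares. They summed to 13.36 and 10.51 FPKM in Saline_GR159897 replicates 2 and 3, above Tacr3 at 4.33 and 5.01 FPKM. In the other saline libraries they summed to less than Tacr3. The share of Tacr3 in the summed FPKM of the receptors was 76.0%, 65.8% and 88.2% in Saline_Vehicle and 95.9%, 59.2% and 55.9% in Saline_GR159897. It was 10.1%, 19.8% and 30.9% in DNBS_Vehicle and 0%, 22.0% and 13.3% in DNBS_GR159897. The receptor sums were 6.49 to 10.11 FPKM in the saline libraries. They were 1.79, 10.51 and 4.04 FPKM in DNBS_Vehicle and 0.46, 5.68 and 4.81 FPKM in DNBS_GR159897. At the lowest sums the order and shares rest on small differences in FPKM. The Tacr3 share, chosen after the values were seen, does not move when a library is rescaled, and it is given as a description. The neighbours in the order of levels, Tacr1 and Tacr2, had overlapping values in each group.

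**Figure D2:**
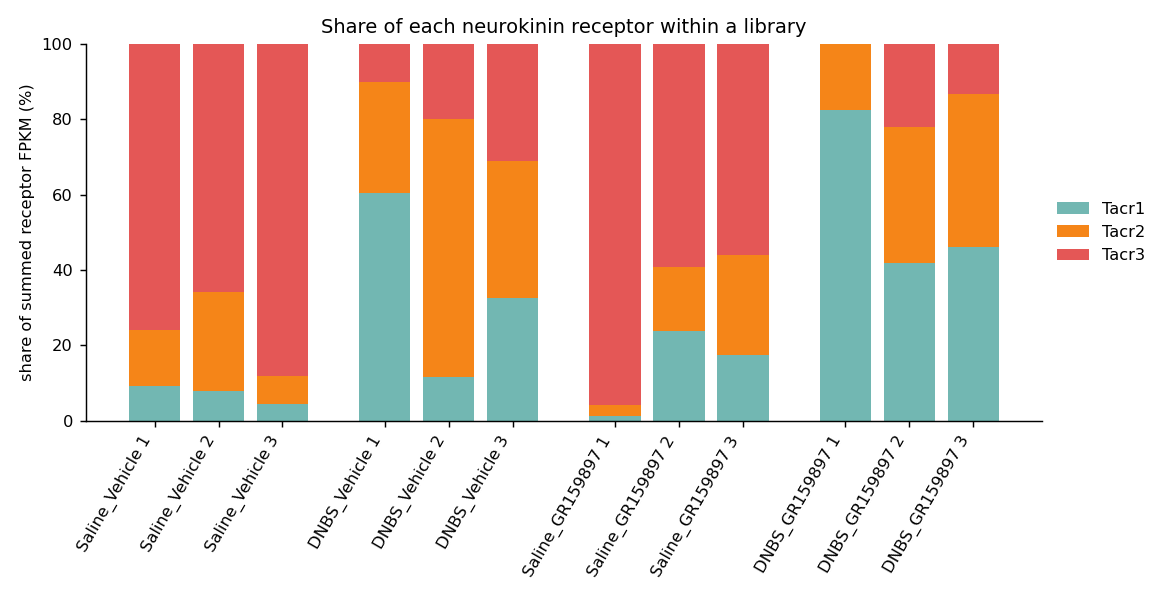
Share of Tacr1, Tacr2 and Tacr3 in their summed FPKM (stacked bars, percent, 1 bar per library, 3 libraries per group). Tacr3 takes between 55.9% and 95.9% in the saline libraries and at most 30.9% in the DNBS libraries. The sums are lowest in DNBS_GR159897 replicate 1 (0.46 FPKM) and DNBS_Vehicle replicate 1 (1.79 FPKM). Only the annotated locus of each gene is counted, and the 37 other loci named for Tacr1 are left out.

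Tac1, the precursor gene of substance P and neurokinin A, had the highest level of the 5 genes in each of the 12 libraries. With vehicle, its level was 18.4, 29.6 and 23.7 FPKM after saline and 48.1, 11.5 and 76.1 FPKM after DNBS. With GR159897, its level was 10.98, 23.0 and 21.0 FPKM after saline and 10.85, 53.9 and 45.6 FPKM after DNBS. After DNBS 4 of 6 libraries lay above every saline library, and the other 2, DNBS_Vehicle replicate 2 and DNBS_GR159897 replicate 1, lay at 11.5 and 10.85 FPKM, beside a lowest saline value of 10.98 FPKM. The change with DNBS averaged over the drug arms was 0.66 ± 0.51 (SE, limma, adjusted p = 0.422), with a 95% interval from −0.44 to 1.76. Without DNBS_GR159897 replicate 1 it was 1.01 (limma, adjusted p = 0.159; exact permutation test, two-sided, p = 0.065, against p = 0.235 with all libraries). With library weights, which give less weight to libraries that scatter more, it was 1.12 (limma, adjusted p = 0.0249), the 1 of 21 alternative fits in which Tac1 passed. The change with the antagonist, averaged over the enema arms, was −0.31 (adjusted p = 0.919), and it was 0.04 without DNBS_GR159897 replicate 1.

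The 2 DNBS libraries with low Tac1 differed in their neuronal markers. In DNBS_GR159897 replicate 1, Tac1 was at 10.9 FPKM while the 11 neuronal markers summed to 10.6 FPKM. In DNBS_Vehicle replicate 2 these markers summed to 223 FPKM, beside 285 and 226 FPKM in the other DNBS_Vehicle libraries. Of these sums the tubulin gene Tubb3 gave 105 FPKM in replicate 2 and 39.2 and 40.7 FPKM in the others. Tac1 was at 11.5 FPKM in DNBS_Vehicle replicate 2. The part of these markers in the Tac1 values was not tested.

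Mme was barely measured. It was listed at 0 in 10 of 12 libraries, at 0.09 FPKM in Saline_Vehicle replicate 3 and at 0.03 FPKM in DNBS_GR159897 replicate 2. No comparison between groups can be drawn from these values.

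**Figure D3:**
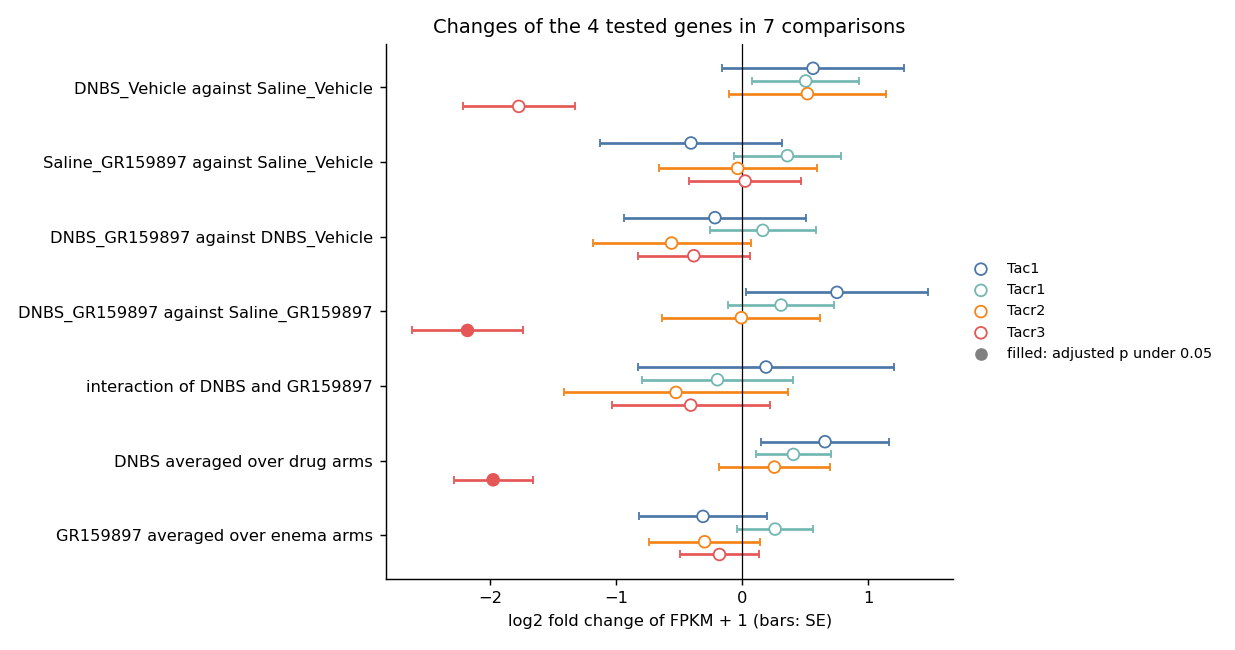
Log2 fold changes of FPKM + 1 (points) with their SE (bars) for Tac1, Tacr1, Tacr2 and Tacr3 in the 7 comparisons, from 1 limma fit over 12 libraries; filled points passed an adjusted p of 0.05. The filled points are Tacr3 in DNBS_GR159897 against Saline_GR159897 (−2.18) and in DNBS averaged over the drug arms (−1.98).

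No member passed in any comparison of antagonist with vehicle. With limma 0 of 12777 genes passed between Saline_GR159897 and Saline_Vehicle (216 with an unadjusted p under 0.05), between DNBS_GR159897 and DNBS_Vehicle (1039) and for the antagonist averaged over the enema arms (557), so percent called was 0 in each. In each, 1 gene passed without DNBS_GR159897 replicate 1. In DNBS_GR159897 against DNBS_Vehicle, Tacr2 was at −0.56 (adjusted p = 0.758), Tacr3 at −0.38, Tac1 at −0.21 and Tacr1 at 0.16, beside a median of all genes of −0.21. With that library left out, these were −0.0676 for Tacr2, −0.0687 for Tacr3, 0.48 for Tac1 and 0.58 for Tacr1, beside a median of all genes of −0.0608. The value of Tac1 also turned, to 0.25, when libraries were scaled to the annotated total. The interaction passed for 0 genes (457 with an unadjusted p under 0.05), or for 1 gene without DNBS_GR159897 replicate 1. The interactions of Tac1, Tacr1 and Tacr2 were 0.19, −0.20 and −0.52 (limma, adjusted p from 0.962 to 0.986). They were 0.89, 0.22 and −0.0329 without DNBS_GR159897 replicate 1, with an adjusted p of 1 each.

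Tacr3 is known from enteric neurons, and neuronal markers are set beside it. The 11 neuronal markers summed to between 200 and 275 FPKM in the saline libraries. In the 5 DNBS libraries other than DNBS_GR159897 replicate 1 the sums lay between 223 and 314 FPKM. Among these markers Tubb3 lay between 0.57 and 30.0 FPKM in the saline libraries and between 29.4 and 105 FPKM in those 5. It gave 105 of the 223 FPKM in DNBS_Vehicle replicate 2. Of 10 neuronal markers tested with limma, 0 passed with DNBS averaged over the drug arms (2 higher, 8 lower, median −0.62), beside 9.6% of all genes. The 1 with an unadjusted p under 0.05 was Nos1, the neuronal nitric oxide synthase, at −1.11 (adjusted p = 0.101). Leaving out DNBS_GR159897 replicate 1, 0 passed (all genes: 3.83% as higher, 5.67% as lower), 3 were higher and 7 lower, and the median was −0.15. The 3 with an unadjusted p under 0.05 were then Tubb3, a neuronal tubulin (2.03, adjusted p = 0.0593), Snap25, a synaptic protein (0.90, adjusted p = 0.17), and Nos1 (−0.78, adjusted p = 0.163). The 10 glial markers summed to between 1735 and 4800 FPKM in the 5 DNBS libraries, overlapping the saline range. Apoe, a lipid carrier that other cells make too, gave between 60.1% and 95.8% of that sum in the 12 libraries. Without Apoe, the other 9 summed to between 371 and 912 FPKM in the saline libraries, and 4 of the 5 DNBS libraries lay below all of these, between 170 and 308 FPKM. The fifth, DNBS_Vehicle replicate 2, was at 552 FPKM. Of 9 glial markers tested, 3 passed as lower, Lpar1 (−2.91), Sox10 (−2.98) and Erbb3 (−1.18), beside 6.83% of all genes. Lpar1 (adjusted p = 0.0204) and Erbb3 (adjusted p = 0.0411) passed without DNBS_GR159897 replicate 1 as well, and Sox10 did not (−2.72, adjusted p = 0.0854). In that fit 5.67% of all genes passed as lower. Neutrophil markers summed to between 0.23 and 12.2 FPKM in the saline libraries and to between 10.5 and 544 FPKM in the DNBS libraries. The markers of interstitial cells of Cajal, the pacemaker cells of the gut, summed to between 21.4 and 33.5 FPKM in the saline libraries. In the DNBS libraries they summed to between 5.33 and 18.2 FPKM, with no overlap, an order that 4.29% of single genes had. Etv1, a transcription factor that these cells share with other cells, made up most of this sum, at 18.8 to 29.3 FPKM against 1.45 to 15.2 FPKM (−1.28, limma, adjusted p = 0.0591, and −0.90, adjusted p = 0.0335, without DNBS_GR159897 replicate 1). Kit, their defining receptor, was at 0.30 to 2.49 FPKM in the saline and at 0.41 to 2.69 FPKM in the DNBS libraries. The part of any of these cell types in the fall of Tacr3 was not tested.

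**Figure D4:**
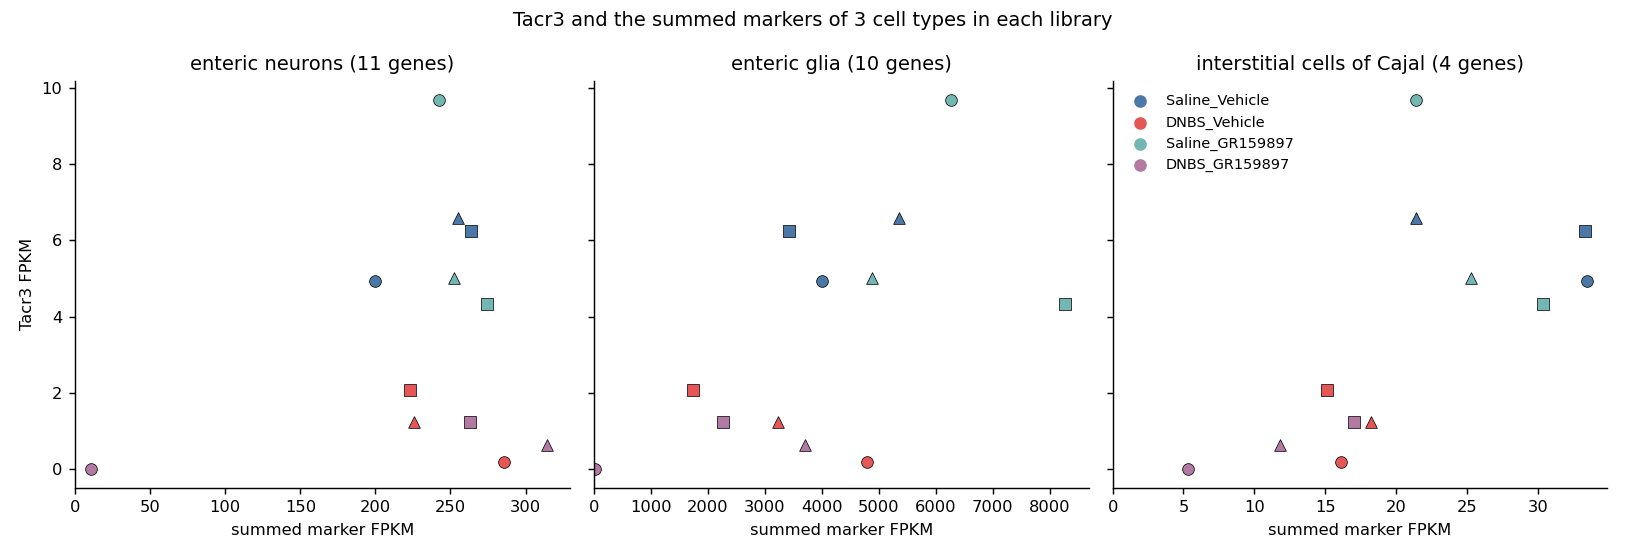
Tacr3 (y axis, FPKM) against the summed FPKM of markers of enteric neurons, enteric glia and interstitial cells of Cajal (x axes, linear, 1 panel each); each symbol is 1 library, colour gives the group and shape the replicate number. The DNBS libraries other than DNBS_GR159897 replicate 1 have neuronal sums of 223 to 314 FPKM, beside 200 to 275 FPKM in the saline libraries, and lie at 2.08 FPKM of Tacr3 or below. Tubb3 gives 29.4 to 105 FPKM of the neuronal sums in those DNBS libraries and 0.57 to 30.0 FPKM in the saline libraries.

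Other genes of tachykinin synthesis, breakdown and signalling were taken from a list of 34 genes by role, which includes the 5 members. Of these, 32 had an annotated locus and 26 were tested. With DNBS averaged over the drug arms, 0 of the 26 passed as higher and 2 as lower, Tacr3 and Gna11, beside 2.76% and 6.83% of all genes. Their median was −0.05 (13 higher, 13 lower) beside −0.18 over all genes. Without DNBS_GR159897 replicate 1, 4 passed as lower and 0 as higher, beside 5.67% and 3.83% of all genes, and the median was 0.04 beside −0.12.

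Among the precursors, Tac2, which encodes neurokinin B, the preferred ligand of the Tacr3 receptor, had 0.93, 0.95 and 0.61 FPKM after saline with vehicle and 4.68, 0 and 0.88 FPKM after DNBS with vehicle. With GR159897 its values were 0.54, 0.80 and 0 FPKM after saline and 0, 1.75 and 1.18 FPKM after DNBS. The groups overlapped, and its change with DNBS averaged over the drug arms was 0.32 ± 0.40 (SE, limma, adjusted p = 0.634), or 0.54 without DNBS_GR159897 replicate 1. It was the precursor with the smallest p in DNBS_GR159897 against DNBS_Vehicle, where it did not pass (−0.28, adjusted p = 0.87) and turned to 0.15 without that library.

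Of 5 peptidase genes, Mme, Ace and Dpp4 stayed under the filter, and Ece1 and Ece2, endothelin-converting enzymes that can cut tachykinins, were tested. Ece1 was at 17.3 ± 0.52 (SD, n = 3) FPKM in Saline_Vehicle and at 24.8 ± 11.9 (SD, n = 3) FPKM in DNBS_Vehicle. It did not pass in that comparison (0.39, limma, adjusted p = 0.782) or in DNBS_GR159897 against DNBS_Vehicle (−0.90, adjusted p = 0.618, or −0.71 without DNBS_GR159897 replicate 1). Neither passed in any of the 7 comparisons.

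The genes of precursor processing had the lowest list median by role, −1.88 over 5 genes with DNBS averaged over the drug arms, and 0 of them passed (3 with an unadjusted p under 0.05). Leaving out DNBS_GR159897 replicate 1, the median was −0.93 and 2 passed as lower, Cpe and Pcsk1n, beside 5.67% of all genes. Cpe, the carboxypeptidase that trims peptide precursors, lay between 698 and 1622 FPKM in the saline libraries and between 19.9 and 658 FPKM in the DNBS libraries. All 6 DNBS libraries lay below all 6 saline libraries, an order found for 4.29% of the genes tested (4.74% without DNBS_GR159897 replicate 1). The change of Cpe was −1.99 (limma, adjusted p = 0.08), or −1.30 (adjusted p = 0.0217) without DNBS_GR159897 replicate 1. Pcsk1n, the inhibitor of a prohormone convertase, lay between 234 and 319 FPKM in the saline libraries. In the DNBS libraries it lay between 1.89 and 171 FPKM, the same order as for Cpe. It was at −1.88 (limma, adjusted p = 0.154), or −0.93 (adjusted p = 0.0202) without that library, and it shares exon sequence with Eras on the opposite strand, which the values do not tell apart. Pcsk1 and Pcsk2, the convertases themselves, were at 0.12 and −0.14, or 0.30 and 0.0329 without that library. Cpe was the gene of this role with the smallest p in both comparisons that fix the names, at −1.12 in DNBS_Vehicle against Saline_Vehicle (adjusted p = 0.688) and at −1.75 in DNBS_GR159897 against DNBS_Vehicle (adjusted p = 0.618), or −0.37 without DNBS_GR159897 replicate 1.

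Downstream of the receptors, Gna11, a G protein alpha subunit of the Gq class, fell. It lay between 11.2 and 27.0 FPKM in the saline libraries and between 3.88 and 20.0 FPKM in the DNBS libraries, a change of −1.27 ± 0.33 (SE, limma, adjusted p = 0.0355), or −1.18 (adjusted p = 0.0426) without DNBS_GR159897 replicate 1. The groups overlapped because Saline_GR159897 replicate 2, at 11.2 FPKM, lay within the DNBS range. Gnaq, the other alpha subunit of that class on the list, was at −0.14 (adjusted p = 0.818), or 0.0393 without DNBS_GR159897 replicate 1. Gna11 was also the gene of this role with the smallest p in DNBS_GR159897 against DNBS_Vehicle (−1.17, adjusted p = 0.607). Prkca, a protein kinase C that shares exon sequence with Apoh on the opposite strand, was that in DNBS_Vehicle against Saline_Vehicle (−0.91, adjusted p = 0.481). Of 9 tested genes of this role 1 passed with DNBS averaged over the drug arms, beside 9.6% of all genes. Their median was −0.47, or −0.21 without DNBS_GR159897 replicate 1.

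Of 5 tested genes of receptor desensitisation 0 passed with DNBS averaged over the drug arms, beside 9.6% of all genes. Grk2, a kinase that phosphorylates activated receptors, lay between 4.43 and 11.31 FPKM in the saline libraries and between 11.25 and 15.96 FPKM in the DNBS libraries, with an overlap of 1 library on each side (0.83, limma, adjusted p = 0.0752). It was the gene of this role with the smallest p in DNBS_Vehicle against Saline_Vehicle (0.88, limma, adjusted p = 0.373). Grk3 was that in DNBS_GR159897 against DNBS_Vehicle (0.74, limma, adjusted p = 0.618), and it was at 1.03 without DNBS_GR159897 replicate 1.

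**Figure D5:**
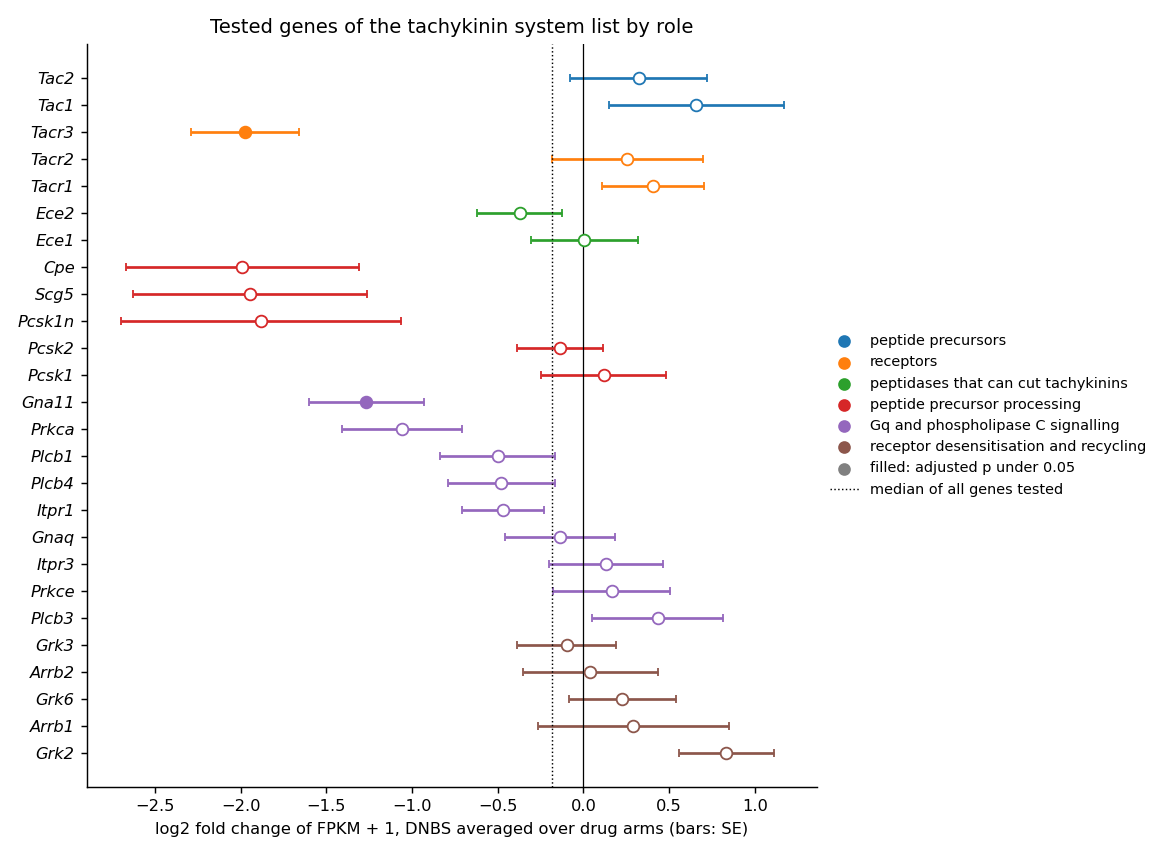
Log2 fold changes of FPKM + 1 with DNBS averaged over the drug arms (points) and their SE (bars) for the 26 tested genes of the list, coloured by role; filled points passed an adjusted p of 0.05 and the dotted line is the median of all genes tested (−0.18). Tacr3 (−1.98) and Gna11 (−1.27) are filled, and Cpe (−1.99), Scg5 (−1.95) and Pcsk1n (−1.88) are open, with wider bars.

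The genes whose levels ran most like those of each member were found by Pearson correlation of log2(FPKM + 1) over the 12 libraries, given as a description. They share the libraries, their depth and the group differences. For Tacr3 they were Hebp2 (r = 0.97), Tspan6 (r = 0.96) and Pla2g15 (r = 0.96). Hebp2 led there over the 11 libraries without DNBS_GR159897 replicate 1 too (r = 0.98), followed by Antxr2 and Zmynd10. For Tac1 they were Gar1 (r = 0.95), Rps6 (r = 0.94) and Cxcl14 (r = 0.92), and Gar1 and Rps6 led over 11 libraries as well. For Tacr1 they were Stk24, Lsm4 and Bnc2 (r = 0.92 each), of which Stk24 stayed among the first 3 over 11 libraries. For Tacr2 they were Lrrc20 (r = 0.89), Orc2 and Azin1 (r = 0.87 each), and none of these was among the first 3 over 11 libraries.

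On GRCm38 coordinates of the GENCODE annotation, all on the plus strand, Tac1 (ENSMUSG00000061762) lies on chromosome 6 at 7554879 to 7565834 and Tacr1 (ENSMUSG00000030043) on chromosome 6 at 82402334 to 82560104. Tacr2 (ENSMUSG00000020081) lies on chromosome 10 at 62252438 to 62265990. Tacr3 (ENSMUSG00000028172) lies on chromosome 3 at 134829007 to 134934579 and Mme (ENSMUSG00000027820) on the same chromosome at 63241537 to 63386030. Exons of these 5 genes overlap those of 0 other annotated genes.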

How the data were processed

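The authors deposited FPKM values per assembled locus and library with 2 decimals, per the file headers. Tools listed, per the submitters' processing notes, are StringTie 1.3, HISAT2 2.0, FastQC 0.10.1 and cutadapt 1.10, whose roles are not stated. A genome build was not named in these sources. Depth per library is unknown, so no counting interval is given, and values do not tell strands apart. Of 99547 loci, 24432 held an Ensembl transcript; the locus with the highest mean was kept per symbol (24394). Gfap, blank in Saline_Vehicle, was left out of the fits and nothing was imputed. The 12777 genes that reached 1 FPKM in 3 or more libraries were fitted as log2(FPKM + 1) with limma 3.58.1 (R 4.3.3; trended, robust prior; 8 residual degrees of freedom; no sex term, no block), two-sided, with Benjamini-Hochberg adjustment over all genes and a threshold of 0.05. Intervals at 95% come from the same fit. Exact permutation tests (8 per set of libraries, unadjusted) rearranged libraries within arms.

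The members and lists were chosen with earlier results of these data known. Named genes are the members, list genes past the threshold, the list gene with the smallest p per role in 2 comparisons, and the 3 genes most like each member. The share of Tacr3 among the receptors, the lists without DNBS_GR159897 replicate 1 and the glial sum without Apoe were added after the data were seen. The limma p-values set a change against the spread between these samples, moderated by the spread of all genes tested. The exact p-values come from rearrangements within arms and cannot fall below 0.005. The procedure was tested on simulated data for DNBS_Vehicle against Saline_Vehicle over 12777 genes: it recovered 0.8%, 36.4%, 75.6% and 84.8% of log2 changes of 1, 2, 3 and 4. On average 3.8 unchanged genes were called per run. The noise was normal, independent between genes and equally wide in every library. No simulated library stood apart as DNBS_GR159897 replicate 1 does, so recovery and false calls in the real data can differ. Changes were placed only in genes with a mean log2(FPKM + 1) over 1, so genes below that level are not covered. Sequences and positions come from GENCODE (GRCm38). Python 3.11.15, pandas 2.3.3 and matplotlib 3.10.9 handled tables and plots.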

Additional observations from a re-analysis of the deposited data

Results flagged for a closer look

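Loci named for a member that hold no annotated transcript were not used in the comparisons and gave signal above the Saline_Vehicle libraries for 3 members. For Tacr1 there were 37 such loci, summing to 1.1, 5.38 and 0.83 FPKM in Saline_Vehicle, to 0, 13.4 and 10.5 FPKM in Saline_GR159897, to 10.9, 12.6 and 3.25 FPKM in DNBS_Vehicle and to 32.9, 45.51 and 11.1 FPKM in DNBS_GR159897. In DNBS_GR159897 replicate 2, 29 of the 37 were above 0, while the annotated Tacr1 locus was at 2.38 FPKM. The share of all summed FPKM on annotated loci was between 75.4% and 95.1% in the saline libraries and between 22.6% and 84.0% in the DNBS libraries. The part of this share in the Tacr1 values was not tested. Tac1 had 2 such loci, at 0.60 FPKM in DNBS_Vehicle replicate 3 and at 3.4 FPKM in DNBS_GR159897 replicate 2, and 0 elsewhere. Mme had 1, at 1.21 FPKM in DNBS_Vehicle replicate 1 and at 0 elsewhere. The annotated Mme locus was at 0 in DNBS_Vehicle replicate 1 and at most at 0.09 FPKM in the 12 libraries.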

How the results depend on the processing

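The fall of Tacr3 with DNBS averaged over the drug arms passed in all 21 alternatives, with changes from −3.19 to −1.78 and adjusted p from 0.000601 to 0.0239. In DNBS_Vehicle against Saline_Vehicle it passed with library weights (−2.05, adjusted p = 0.0114). In DNBS_GR159897 against Saline_GR159897 the call was lost with a pseudocount of 0.1 (−3.71), without a filter on low values (−2.18), with libraries scaled to the annotated total (−2.09), with a sex term (−2.06), with the groups compared alone (−2.18) and with the replicate number as a block (−2.18, adjusted p = 0.0673). Leaving out 1 library gave −2.45 to −1.87. The labels state no pairing by replicate number. Same-numbered libraries correlated at −0.088 to 0.202 (median 0.016), 2 of 18 pairs over 0.1. Libraries with different numbers correlated at −0.265 to 0.223 (median 0.00069), 3 of 36 pairs over 0.1. Of the 12 libraries, 5 were closest to their own number. Such correlations over all genes cannot exclude a shared batch or day. The cause of the lost calls was not tested.

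Counts of genes called moved more. DNBS_Vehicle against Saline_Vehicle gave 41, and 21 with a pseudocount of 0.1, 13 without the filter, 18 with the replicate block, 24 with a sex term, 514 with library weights, 109 with the groups alone and 0 to 176 leaving out 1 library. DNBS_GR159897 against Saline_GR159897 gave 176, and in the same order 42, 18, 31, 25, 2158, 10 and 4 to 604. Scaled to the annotated total it gave 91 (50 higher and 41 lower, against 49 and 127). DNBS averaged over the drug arms gave 1226, and 442 without the filter, 805 with a sex term, 3009 with library weights and 397 to 1655 leaving out 1 library. With 0 as reported, Saline_GR159897 against Saline_Vehicle gave 1 with the pseudocount, the scaling or the groups alone, 5 with weights and 0 to 3 leaving out 1 library. DNBS_GR159897 against DNBS_Vehicle gave 2 with the pseudocount, 3 with the scaling, 69 with weights and 0 to 6. The interaction gave 2 with the pseudocount, 1 with a filter over 6 libraries or the scaling, 5 with weights and 0 to 2. The antagonist averaged over the enema arms gave 1 with the pseudocount, 4 with weights and 0 to 2.

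Members that did not pass changed sign in some fits. With library weights, DNBS_GR159897 against DNBS_Vehicle gave 0.16 for Tac1, 0.36 for Tacr2 and 0.36 for Tacr3, and the interaction gave 0.0406 for Tacr1, 0.11 for Tacr2 and 0.44 for Tacr3. The antagonist average then gave 0.30 for Tacr2 and 0.13 for Tacr3, Saline_GR159897 against Saline_Vehicle 0.25 for Tacr2 and −0.09 for Tacr3, and DNBS_GR159897 against Saline_GR159897 0.19 for Tacr2. That last value was 0.0825 with the scaling and 0.16 with a sex term. The scaling also gave 0.25 for Tac1 in DNBS_GR159897 against DNBS_Vehicle and 0.0055 for the Tacr1 interaction. Leaving out 1 library, Tac1 ran from −0.98 to 0.48 in DNBS_GR159897 against DNBS_Vehicle, from −0.58 to 0.89 in the interaction and from −0.69 to 0.0388 in the antagonist average. Tacr1 ran from −0.0624 to 0.58 in DNBS_GR159897 against DNBS_Vehicle, from −0.10 to 0.73 in DNBS_GR159897 against Saline_GR159897 and from −0.61 to 0.22 in the interaction. Tacr2 ran from −0.17 to 1.04 in DNBS_Vehicle against Saline_Vehicle, from −0.37 to 0.33 in Saline_GR159897 against Saline_Vehicle, from −1.08 to 0.13 in DNBS_GR159897 against DNBS_Vehicle and from −0.37 to 0.49 in DNBS_GR159897 against Saline_GR159897. It ran from −1.04 to 0.17 in the interaction, from −0.0901 to 0.52 in the DNBS average and from −0.56 to 0.0499 in the antagonist average. Tacr3 ran from −0.28 to 0.22 in Saline_GR159897 against Saline_Vehicle. Depth is unknown, so counting error at these low levels cannot be given.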
